A study of Mus musculus with 8 samples.

Results

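Imprinted genes, which are transcribed mainly from the copy inherited from 1 parent, were followed across male and female genital tubercles, the embryonic outgrowth that becomes the penis or the clitoris. A list of 44 known imprinted mouse genes was matched to the platform annotation, and every probe set that named 1 of these genes alone was taken: 106 probe sets for 39 genes, of 45101 probe sets in all. For the other 5 genes no such probe set was found: H19 is named only together with Mir675, and Dio3, Rtl1, Zrsr1 and Peg13 were not analysed here. The samples were 4 male and 4 female tubercle regions of FVB/N embryos at 14 dpc (Theiler stage 22), wild type as far as the labels say. Each was microdissected without pooling, carried through 2 rounds of RNA amplification and hybridized to its own Affymetrix MOE430 array. The labels do not say whether embryos shared a litter or a hybridization, so each p-value reflects how much these 8 arrays vary, and some of that may be technical.

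Imprinted genes lie in domains where a differentially methylated control region silences some genes on the maternal copy and others on the paternal copy, often through a long noncoding RNA. Many of the paternally expressed members, such as Igf2, promote embryonic growth, and several maternally expressed ones, such as Igf2r, Grb10 and Cdkn1c, restrain it. The array reads the total RNA of both copies, so nothing below says which parental copy was used. Levels are deposited intensities, and each difference is the male minus the female mean of log2(intensity + 16), given ± its standard error from limma, a scale that understates changes of dim genes. A gene is represented by its brightest tested probe set unless another is named, and "called" means a limma adjusted p under 0.05 over all tested probe sets.

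The tissue label was checked first. Hoxd13 and Isl1, transcription factors of the tubercle, averaged 29770 ± 1280 and 26832 ± 1240 in males and 36381 ± 1960 and 33690 ± 2710 in females (SD, n = 4 each). Eif2s3y, a Y-linked gene, read 4109 to 6136 on the male arrays and 31.1 to 70.9 on the female arrays. Male replicate 3 stood apart, with 16036 for Xist, the RNA of the inactive X chromosome, against 230.0 to 620 on the other male arrays and 32465 to 35816 on the female arrays, while its Eif2s3y was at the male level. The 18S ribosomal control moved with sex, at 21050 to 33634 on the male arrays and 8332 to 18926 on the female arrays (two-sided exact permutation test, p = 0.0286, which is the lowest value 4 against 4 arrays can reach, with an adjusted p of 0.04 over 7 array measures), as did the array's median log2 value. In bulk tissue, fewer cells of a type and less RNA per cell cannot be told apart.

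The start regions of Snhg14, Ube3a and Mkrn3, called higher in males in the Snrpn/Ube3a domain, are shown, with those of Rian and Meg3, noncoding neighbours in the Dlk1/Dio3 domain. Rian was called higher in males, and Meg3 was so on its second brightest probe set and not on its brightest. They are RefSeq windows of 300 bases (GRCm38.p6), from 250 bases before to 50 after a listed start, written 5′ to 3′, and capitals mark CpG dinucleotides, the site of imprint methylation.
Snhg14 and Snrpn, chr7:60450128-60450427, - strand: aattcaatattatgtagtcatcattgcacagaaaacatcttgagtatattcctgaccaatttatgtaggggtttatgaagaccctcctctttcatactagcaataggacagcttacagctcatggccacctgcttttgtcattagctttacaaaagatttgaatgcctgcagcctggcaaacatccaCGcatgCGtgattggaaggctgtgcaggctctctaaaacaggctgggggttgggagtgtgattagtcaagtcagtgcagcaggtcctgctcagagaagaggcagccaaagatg
Ube3a, chr7:59228500-59228799, + strand: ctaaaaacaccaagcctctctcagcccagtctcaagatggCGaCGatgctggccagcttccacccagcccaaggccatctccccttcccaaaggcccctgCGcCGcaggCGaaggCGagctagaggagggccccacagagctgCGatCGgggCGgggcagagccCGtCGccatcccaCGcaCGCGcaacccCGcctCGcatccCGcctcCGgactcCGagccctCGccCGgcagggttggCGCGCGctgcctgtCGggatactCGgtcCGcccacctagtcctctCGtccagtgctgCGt
Mkrn3, chr7:62420104-62420403, - strand: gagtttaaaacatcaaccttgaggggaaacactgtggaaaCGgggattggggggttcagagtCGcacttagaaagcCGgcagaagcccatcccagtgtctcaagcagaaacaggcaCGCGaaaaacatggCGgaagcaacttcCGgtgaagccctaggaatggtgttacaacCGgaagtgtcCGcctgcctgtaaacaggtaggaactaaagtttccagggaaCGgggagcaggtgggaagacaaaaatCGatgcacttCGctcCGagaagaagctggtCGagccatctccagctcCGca
Meg3, chr12:109540746-109541045, + strand: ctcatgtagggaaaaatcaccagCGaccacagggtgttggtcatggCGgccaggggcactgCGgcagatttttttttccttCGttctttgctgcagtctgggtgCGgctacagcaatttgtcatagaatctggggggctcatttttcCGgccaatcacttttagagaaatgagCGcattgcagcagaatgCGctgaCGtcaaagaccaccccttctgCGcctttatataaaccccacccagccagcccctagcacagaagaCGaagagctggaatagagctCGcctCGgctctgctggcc
Rian, chr12:109603695-109603994, + strand: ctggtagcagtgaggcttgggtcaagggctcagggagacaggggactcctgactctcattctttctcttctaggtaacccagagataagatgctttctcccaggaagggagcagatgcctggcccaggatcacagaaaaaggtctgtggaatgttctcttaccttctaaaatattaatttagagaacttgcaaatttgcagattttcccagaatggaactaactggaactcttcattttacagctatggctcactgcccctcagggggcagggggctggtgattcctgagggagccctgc
The Meg3 window shown is 1 of 2 listed starts. The Snhg14 window, which is also 1 of the listed Snrpn starts, holds 2 CpG, and the Rian window holds 0. By contrast, the Ube3a window holds 29, the Mkrn3 window 15 and the Meg3 window 13. Over 53 member windows, which covered 36 of the genes, the median was 15 CpG, beside 7 over 32817 windows of all genes. The letters TGCCGC, the core that the imprint protein Zfp57 binds when methylated, were searched on both strands (reverse GCGGCA). They occurred in 13 member windows (24.5%) and in 11.6% of all windows. Of the 5 windows shown, the Meg3 window has the match, on the reverse strand, starting at base 61 of the window. A match is a description of the letters and not a binding site.

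Among 34 members with a tested probe set, 15 were called, or 44.1%, where the same test called 42.2% of all tested genes. Of the 34, the male level was higher for 7 and lower for 8, and 19 were not called. The 7 were Snhg14, Rian, Ube3a, Mkrn3, Peg12, Kcnq1ot1 and Copg2. The 8 were Igf2r, Osbpl5, Dlk1, Commd1, Impact, Igf2, Gnas and Cd81. Over all 11489 tested genes 14% were called higher in males and 28.2% lower, where the members gave 20.6% and 23.5%. Their median difference was 0.04, beside -0.12 over all tested genes. Of the 74 tested member probe sets 29 were called, or 39.2%, beside 40.5% of all tested probe sets. There were 21 higher and 8 lower in males, or 28.4% and 10.8%, where all 22519 tested probe sets gave 18.7% and 21.9%. Probe sets of 1 gene are read on the same arrays and are not independent. At an upper-quartile filter 9 member probe sets were higher and 9 lower, beside 2476 and 3414 of all 11260 probe sets tested there. With the mean of a gene's probe sets 9 member genes were higher and 4 lower, beside 1978 and 2975 of all 11489 genes. Of the 74 tested member probe sets, 18 had every male array above every female array and 8 had every male array below. Of all 22519 tested probe sets, 3567 and 4784 did so (15.8% and 21.2%).

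**Figure D1:**
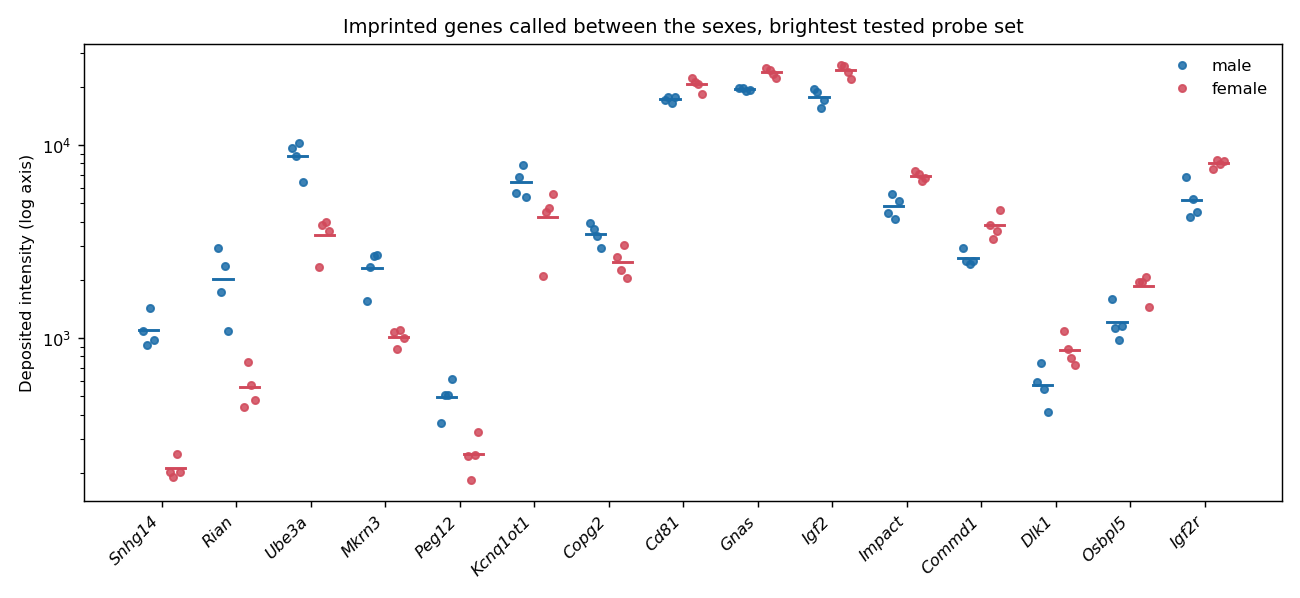
Deposited intensity (log axis) of the 15 called imprinted genes on their brightest tested probe set, with a point for each array and a bar at the mean of 4 males (left of each pair) and 4 females (right). Snhg14, Rian, Ube3a, Mkrn3 and Peg12 have every male array above every female array, and the largest separation is that of Snhg14.

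Of 18 tested paternally expressed members 4 were higher and 3 lower in males (22.2% and 16.7%). Of 15 maternally expressed ones 3 were higher and 4 lower (20% and 26.7%). All tested genes gave 14% and 28.2%. The median differences of the paternally and maternally expressed members were 0 and 0.12. These classes are known labels, and the copy used in the tubercle was not measured. Gnas, whose transcripts differ in the copy they come from, was counted in neither. With the 18S level as a covariate, whose male and female ranges did not overlap, Snhg14 (2.13, limma adjusted p = 0.0193) and Mkrn3 (1.44, adjusted p = 0.0437) were still called. The other 13 genes were not. The same fit called 125 higher and 105 lower in males of all 11489 tested genes, where sex alone called 1610 and 3244. Without male replicate 3, 6 member genes were higher and 7 lower, beside 1343 and 2766 of all tested genes. In that fit 15 member probe sets were higher and 7 lower, beside 3374 and 4167 of all tested probe sets.

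Long noncoding RNAs were among the members with the largest differences. Of 6 tested noncoding members 3 were higher in males, Snhg14, Rian and Kcnq1ot1, and 0 were lower, while Meg3, Airn and Mirg did not pass on their brightest probe set. Kcnq1ot1 passed narrowly, and its 4 tested probe sets had differences of both signs. Over the 256 tested genes that RefSeq classes as long noncoding, 10.5% were higher and 9.38% lower in males.

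Snhg14 is the host transcript of the Prader-Willi snoRNA clusters and continues, in neurons, as an antisense RNA across Ube3a. It read 1084, 920.2, 1425 and 974.2 on male arrays 1 to 4, against 202.2, 191.0, 250.1 and 200.7 on female arrays 1 to 4. No male array came near a female one, and the difference was 2.28 ± 0.19 (limma adjusted p = 2.35e-05). Both of its dimmer probe sets lay below the intensity filter, at 66.3 to 162.2 and 75.3 to 130.5 in males and 11.9 to 68.2 and 3.80 to 25.5 in females.

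Rian (also Meg8), a maternally expressed noncoding RNA that hosts C/D box snoRNAs and miRNAs downstream of Meg3, was higher in males on all 4 of its probe sets. The brightest read 2914, 1723, 2348 and 1088 in males, against 435.5, 748.3, 569.7 and 473.7 in females, a difference of 1.77 ± 0.27 (limma adjusted p = 0.000521). The next read 1219, 1160, 1361 and 765 in males and 456.7, 487.6, 552.6 and 490.2 in females (1.13 ± 0.19). The third gave the widest gap, with 1523, 1363, 1689 and 1122 in males and 7.17, 518.6, 223.9 and 185.8 in females (3.19 ± 0.70). The low value of female replicate 1 there widens both the difference and its error. On the dimmest probe set the sexes overlapped (0.83 ± 0.30), and its call was lost without any of 6 arrays, male replicates 1, 2 and 3 and female replicates 1, 3 and 4 (highest limma adjusted p = 0.126, without female replicate 1).

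RefSeq places 6 mature miRNAs on the Rian strand within the gene, and they are printed because their host RNA was higher in males. The miRNAs themselves were not measured here. Each is written 5′ to 3′ with its seed, bases 2 to 8, in capitals, and the 6 seeds are all different.
mmu-miR-341-5p: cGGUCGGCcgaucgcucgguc
mmu-miR-341-3p: uCGGUCGAucggucggucggu
mmu-miR-1188-5p: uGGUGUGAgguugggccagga
mmu-miR-1188-3p: uCCGAGGCuccccaccacacccugc
mmu-miR-370-5p: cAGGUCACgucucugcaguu
mmu-miR-370-3p: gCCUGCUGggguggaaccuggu
A further 3 mature miRNAs lie within Meg3 and 19 within Mirg, which did not pass on its tested probe set (0.38 ± 0.19, limma adjusted p = 0.142).

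Meg3 (Gtl2), a maternally expressed tumour suppressor RNA and the start of the same noncoding series, was read by 9 tested probe sets that did not move alike. Its brightest was level between the sexes, at 15100, 14987, 14393 and 14453 in males and 12179, 15432, 13517 and 13167 in females (0.12 ± 0.08, limma adjusted p = 0.239). The second brightest read 9997, 8693, 7881 and 7056 in males, against 1934, 4484, 3354 and 3298 in females. That probe set separated the sexes fully, by 1.41 ± 0.21 (limma adjusted p = 0.000398). The third and the fourth pointed to lower male levels without passing (-0.51 ± 0.23 and -0.61 ± 0.23), and the remaining 5 lay between -0.32 and 0.65 and did not pass. Which exons each probe set reads was not analysed here.

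Kcnq1ot1, the paternally expressed antisense RNA that silences the Kcnq1 domain, read 5601, 6814, 7816 and 5335 in males and 2098, 4491, 4676 and 5569 in females on its brightest probe set. The ranges overlapped through female replicate 4, and the difference of 0.67 ± 0.25 passed narrowly (limma adjusted p = 0.0478). It was not called without male replicate 1, 2 or 3 or female replicate 1, 2 or 3 (highest adjusted p = 0.13), and it fell to 0.37 without female replicate 1. Its dimmest tested probe set was also called (1.08 ± 0.34), except without male replicate 3 or female replicate 1 or 2 (highest adjusted p = 0.08). The other tested probe sets lay at -0.47 ± 0.25 and -0.18 ± 0.23. Airn, the paternally expressed antisense RNA of Igf2r, was even between the sexes at 1241, 1271, 1236 and 1039 in males and 1025, 1602, 1166 and 1272 in females (-0.07 ± 0.16). Its other 3 tested probe sets lay between -0.37 and 0.11, and none passed. A further Airn probe set, below the filter and not tested, read 27.3 to 134.8 in males and 206.2 to 249.2 in females.

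In the Snrpn/Ube3a domain on chromosome 7, 4 of 6 tested genes were higher in males, Snhg14 among them, and 0 lower. These are 66.7% and 0%, beside 14% and 28.2% of all tested genes, in 1 small domain of several counted. Ube3a encodes the ubiquitin ligase lost in Angelman syndrome and is imprinted in neurons, where the maternal copy is used. It read 9596, 8781, 10156 and 6445 in males, against 2321, 3831, 3960 and 3564 in females. The difference was 1.36 ± 0.18 (limma adjusted p = 0.000221), and 4 of its 5 tested probe sets were called higher in males. The others called differed by 1.26 ± 0.24, 0.80 ± 0.18 and 0.86 ± 0.22, and the fifth by 0.83 ± 0.42 (adjusted p = 0.138), where female replicate 4 reached 440.

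Mkrn3, a paternally expressed ubiquitin ligase gene known as a brake on puberty in humans, read 1551, 2328, 2638 and 2690 in males, against 1077, 871.8, 1098 and 995.2 in females (1.15 ± 0.18, limma adjusted p = 0.000547). Peg12, an intronless relative of the Frat genes of Wnt signalling, read 363.1, 503.1, 504.4 and 610.8 in males, against 244.0, 182.2, 245.9 and 324.1 in females (0.95 ± 0.23). The sexes did not overlap for either gene. The necdin gene Ndn and its relative Magel2, which encode MAGE proteins of the same domain, did not pass. Ndn was 1 of the brightest members, with 30271, 32958, 33492 and 32974 in males and 37975, 35640, 35661 and 34115 in females (-0.14 ± 0.06, limma adjusted p = 0.0598). It was called without female replicate 4 (-0.17, adjusted p = 0.0342). Its other 4 tested probe sets lay between -0.12 and 0.22. Magel2 read 646 to 950 in males and 581 to 715 in females (0.28 ± 0.17).

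Snrpn itself, a splicing protein gene, was named alone by 1 probe set below the filter, at 15.4 to 54.8 in males and 17.1 to 27.6 in females. A probe set that names Snurf and Snrpn together, outside the rule, averaged 5269 ± 241 in males and 5018 ± 1590 in females and did not pass (0.12 ± 0.18, limma adjusted p = 0.613).

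**Figure D2:**
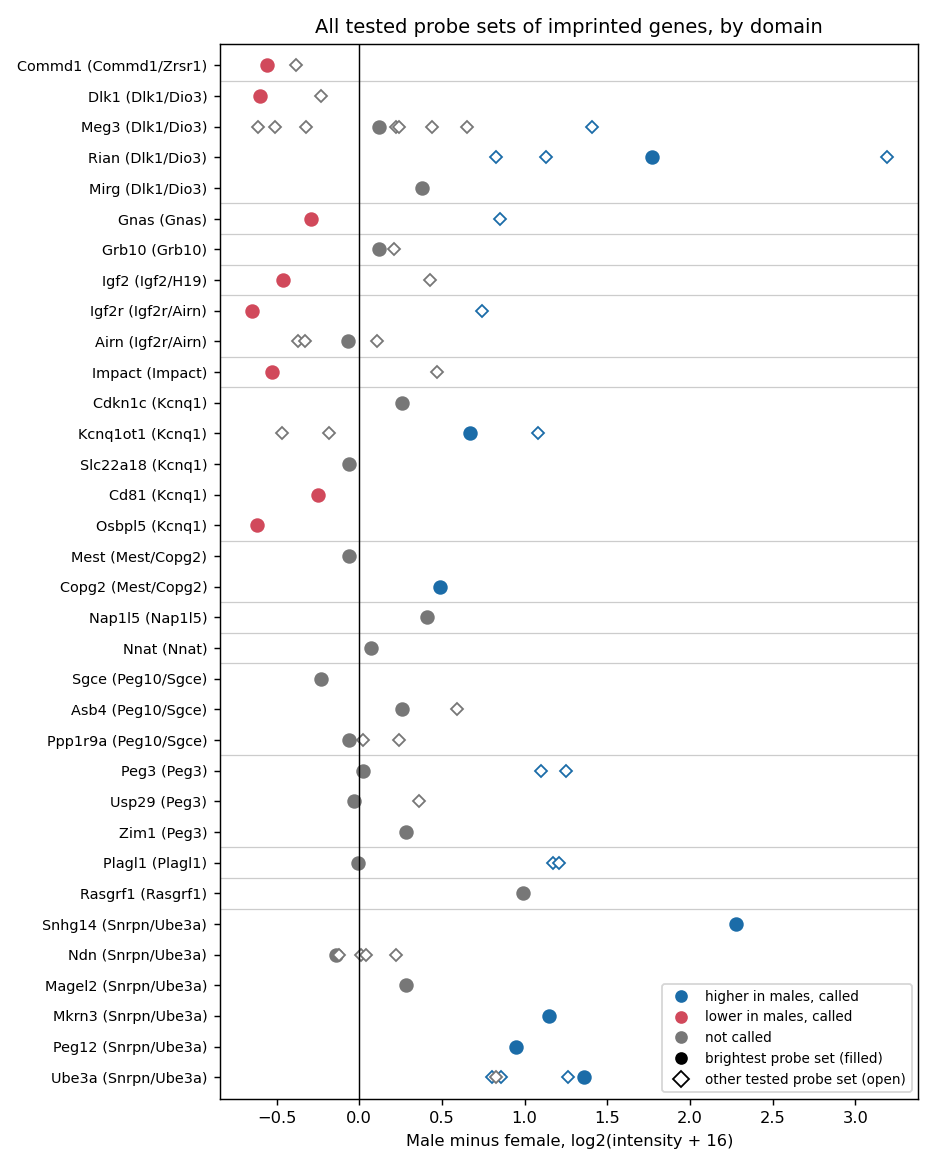
Male minus female difference of the 74 tested probe sets of imprinted genes on the log2(intensity + 16) scale, with genes in rows by domain, filled circles for the brightest probe set of a gene and open diamonds for its others. All open symbols that passed lie right of 0, and Gnas and Igf2r have a called probe set on each side.

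The growth factor axis was led by Igf2, the paternally expressed insulin-like growth factor of the embryo. It read 19460, 18833, 15541 and 17147 in males, against 25967, 25598, 23743 and 21897 in females. Every male array lay below every female array, with a difference of -0.46 ± 0.08 (limma adjusted p = 0.0015). Its dimmer probe set went the other way without passing, at 5858, 4522, 7440 and 3774 in males and 3898, 3595, 4030 and 3969 in females (0.43 ± 0.17, adjusted p = 0.0655). With the mean of both probe sets the gene was not called (-0.01, adjusted p = 0.928). The probe set that names H19 with Mir675, for the maternally expressed RNA beside Igf2, averaged 32840 ± 2180 in males and 35416 ± 2850 in females and did not pass (-0.11 ± 0.07, adjusted p = 0.249).

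Igf2r, the receptor that removes the Igf2 protein for degradation, had called probe sets in opposite directions. The brighter read 6812, 4224, 5258 and 4463 in males, against 7522, 8323, 7926 and 8251 in females (-0.65 ± 0.14, limma adjusted p = 0.00288). On the dimmer the order of the sexes was reversed, with 2581, 1029, 1559 and 1011 in males and 731.0, 983.7, 735.4 and 977.1 in females (0.74 ± 0.27, adjusted p = 0.0412). The dimmer one rested on single arrays: it was not called without male replicate 1 or 3 or any 1 female array (highest adjusted p = 0.101), and it fell to 0.46 without male replicate 1. With the mean of both, Igf2r was at 0.05 (adjusted p = 0.852).

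Grb10, an adaptor that dampens insulin and Igf1 receptor signalling, was the member with 37775, 38113, 44163 and 40116 in males and 37124, 37767, 36385 and 36111 in females. The arrays separated by a narrow margin, and the difference of 0.12 ± 0.06 did not pass (limma adjusted p = 0.13), although it did with quantile normalization (0.18, adjusted p = 0.00568). Its other tested probe set differed by 0.21 ± 0.19. Dlk1, a paternally expressed transmembrane protein that holds back differentiation, read 587.3, 741.0, 542.2 and 414.1 in males, against 1086, 874.8, 781.4 and 724.4 in females (-0.60 ± 0.20, limma adjusted p = 0.0319). Male replicate 2 exceeded the lowest female array. The call was lost without male replicate 3 or 4 or female replicate 1, 2 or 3 (highest adjusted p = 0.0987), and its other probe set did not pass (-0.23 ± 0.19).

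Gnas encodes the stimulatory G protein alpha subunit and other imprinted transcripts. It read 19571, 19703, 19035 and 19257 in males, against 25069, 24455, 23366 and 22098 in females (-0.29 ± 0.06, limma adjusted p = 0.00322). The males were tightly grouped and all below the females. A far dimmer probe set was called higher in males, with 824.7, 407.8, 409.6 and 269.9 in males and 183.7, 260.4, 249.4 and 264.3 in females (0.85 ± 0.29, adjusted p = 0.0353). That second call held without male replicate 4 and was lost without any other array (highest adjusted p = 0.0929), with 0.56 without male replicate 1. With the mean of both, Gnas was not called (0.28, adjusted p = 0.135).

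Cdkn1c, the maternally expressed cyclin-dependent kinase inhibitor p57, read 12112, 10333, 8856 and 8397 in males and 8719, 9023, 8007 and 7121 in females. It did not pass (0.26 ± 0.12, limma adjusted p = 0.102). Plagl1 (Zac1), a zinc finger factor that regulates other imprinted genes, was level on its brightest probe set, with 32759, 36960, 38587 and 36385 in males and 37169, 37201, 37803 and 33767 in females (-0.01 ± 0.06). Its dimmer probe sets were both called higher in males. The one at 430.4, 543.5, 680.1 and 295.6 in males and 196.5, 373.8, 219.2 and 91.3 in females differed by 1.17 ± 0.36. The other, at 445.9, 369.7, 461.9 and 275.4 in males and 96.9, 204.1, 185.2 and 158.8 in females, differed by 1.21 ± 0.26 without overlap. The call of the set that differed by 1.17 was lost without male replicate 2 or 3 or female replicate 4 (highest adjusted p = 0.0688).

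In the Kcnq1 domain, besides Kcnq1ot1, the tetraspanin gene Cd81 and the sterol transfer gene Osbpl5 were lower in males, both maternally expressed in placenta. Cd81 read 17048, 17772, 16526 and 17723 in males, against 22153, 21130, 20726 and 18429 in females (-0.25 ± 0.07, limma adjusted p = 0.0143). Osbpl5 read 1583, 1126, 976.5 and 1150 in males, against 1952, 1942, 2062 and 1443 in females (-0.62 ± 0.17, adjusted p = 0.0141). The sexes were apart for Cd81 and overlapped for Osbpl5, where male replicate 1 exceeded female replicate 4. The organic cation transporter gene Slc22a18 did not pass (-0.06 ± 0.22). Kcnq1, a potassium channel gene, Phlda2, a restrainer of placental growth, and Ascl2, a trophoblast factor, were not tested, with brightest probe sets at 29.9 to 42.1, 55.7 to 159.4 and 25.8 to 33.4 in males and 20.0 to 35.4, 32.5 to 136.4 and 25.6 to 176.6 in females.

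Peg3, a paternally expressed zinc finger gene with effects on growth and maternal behaviour, was among the brightest members. Its brightest probe set read 37790, 38194, 44470 and 38751 in males and 40380, 39794, 40010 and 36984 in females (0.02 ± 0.06, limma adjusted p = 0.856). Both dimmer tested probe sets were higher in males with no overlap. The first of these read 6145, 3910, 5274 and 3206 in males, against 1275, 2322, 1892 and 2191 in females (1.25 ± 0.22, adjusted p = 0.0011). The next read 3636, 3046, 3282 and 1660 in males, against 1376, 1491, 1184 and 1153 in females (1.10 ± 0.22, adjusted p = 0.00204). With the mean of its probe sets Peg3 was called (0.79, adjusted p = 0.000514). Its neighbours Usp29, a ubiquitin protease gene, and Zim1, a zinc finger gene, did not pass (-0.03 ± 0.22 and 0.28 ± 0.21), and a second Usp29 probe set lay at 0.36 ± 0.29. Usp29 read 290.1, 200.1, 267.9 and 219.3 in males and 284.5, 191.4, 282.8 and 244.3 in females on the brighter one.

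**Figure D3:**
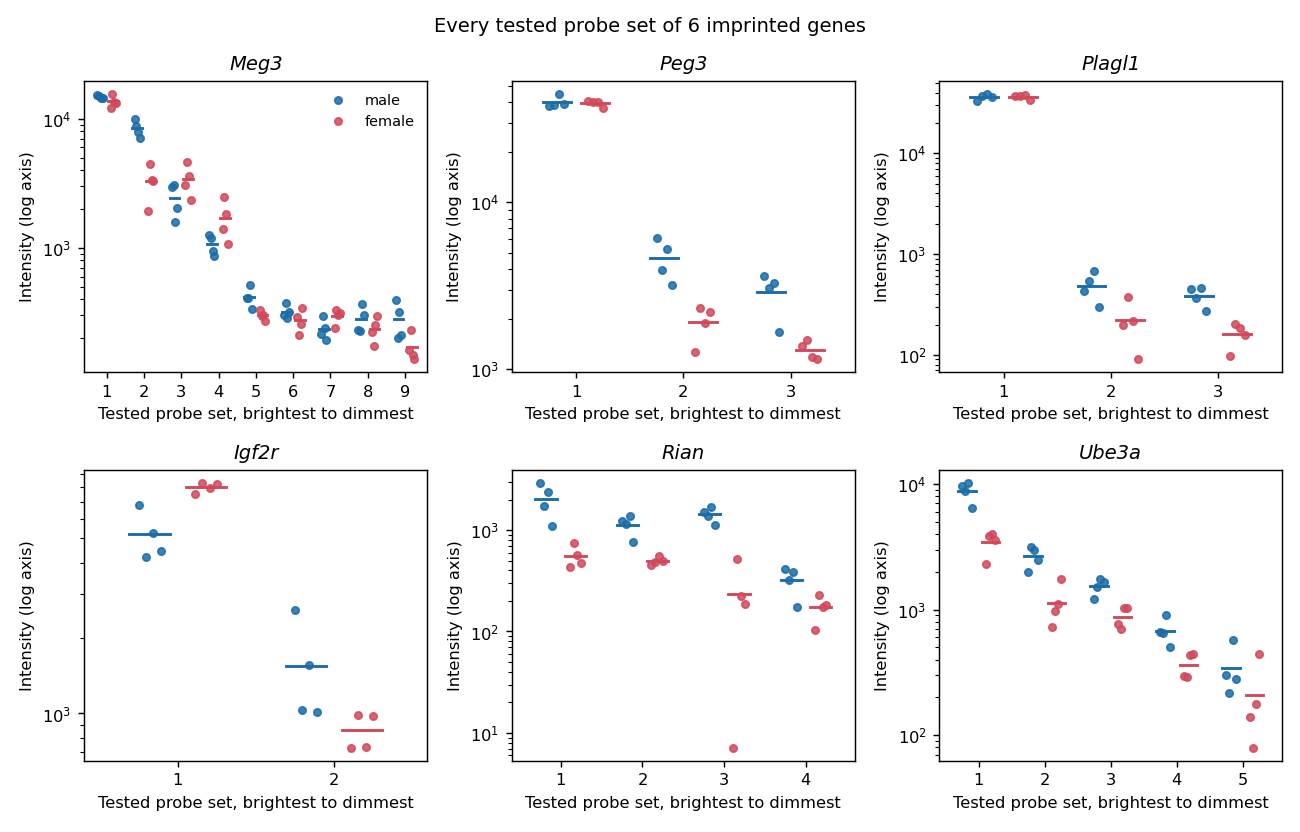
Intensity (log axis) of every tested probe set of Meg3, Peg3, Plagl1, Igf2r, Rian and Ube3a, ordered from brightest to dimmest, with a point for each array and a bar at the mean (males left, females right). In Peg3 and Plagl1 the sexes coincide on the brightest probe set. They part on the dimmer ones of Peg3 and on the dimmest of Plagl1, and overlap on the second of Plagl1. In Ube3a the male means are higher throughout.

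In the Mest/Copg2 domain, Mest (Peg1), a paternally expressed hydrolase gene of mesenchyme, read 9346, 13641, 11042 and 12433 in males and 12549, 12382, 12532 and 10513 in females and did not pass (-0.06 ± 0.11). Copg2, a coatomer subunit gene that overlaps it, read 3911, 3647, 3374 and 2931 in males, against 2630, 2252, 3007 and 2041 in females (0.49 ± 0.14, limma adjusted p = 0.0177). Male replicate 4 lay below female replicate 3. None of the 3 tested genes of the Peg10/Sgce domain passed: the sarcoglycan gene Sgce (-0.23 ± 0.12), the SOCS box gene Asb4 (0.26 ± 0.14) and Ppp1r9a, which encodes the actin-binding neurabin (-0.06 ± 0.11). Asb4 read 4148, 4725, 3879 and 3685 in males and 3296, 2861, 3248 and 4443 in females, and was called without female replicate 4 (0.38, limma adjusted p = 0.0293). Its other probe set was at 0.59 ± 0.26. The brightest Ppp1r9a probe set read 5111, 6133, 5112 and 6276 in males and 5249, 6823, 5673 and 5914 in females, and its other tested probe sets were at 0.02 ± 0.11 and 0.24 ± 0.26. Peg10, a retrotransposon-derived gene of the placenta, had its 1 probe set below the filter, at 43.0 to 278.9 in males and 75.8 to 150.6 in females.

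The remaining members stand alone or in small domains. Commd1, a regulator of copper handling and NF-kappaB, was lower in males, with 2905, 2489, 2415 and 2491 in males and 3842, 3264, 3553 and 4617 in females (-0.56 ± 0.13, limma adjusted p = 0.00489). Impact, an inhibitor of the Gcn2 kinase, was also lower, at 4416, 5583, 4111 and 5096 in males and 7340, 7028, 6453 and 6742 in females (-0.53 ± 0.11, adjusted p = 0.00287). Both separated the sexes on these probe sets. The dimmer probe set of Commd1 lay at -0.38 ± 0.17, and that of Impact at 0.47 ± 0.40, and neither passed. With the mean of its probe sets Impact was not called (-0.03, adjusted p = 0.913).

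The neuronal genes Nnat, Nap1l5 and Rasgrf1 did not pass and had the largest standard errors among the members' brightest probe sets. Nnat, a membrane proteolipid gene, read 302 to 1251 in males and 533 to 775 in females (0.07 ± 0.36). Nap1l5, a nucleosome assembly gene, read 281 to 1502 in males and 373 to 697 in females (0.41 ± 0.42). Rasgrf1, a Ras exchange factor gene, reached 1698 in male replicate 3 and 210 to 327 in the other males, beside 112 to 314 in females (0.99 ± 0.53). Male arrays thus spanned the female range for Nnat and Nap1l5.

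Where a gene had several tested probe sets, the dimmer ones tended to be higher in males. The dimmest exceeded the brightest in its male minus female difference for 15 of 18 members, with a median gap of 0.38. Over all 4934 genes with several tested probe sets this held for 63.5%, with a median gap of 0.19. Of the 40 tested member probe sets that were not the brightest of their gene, 14 were higher in males and 0 lower (35% and 0%), beside 24.6% and 15.1% of the 8109 such probe sets of all genes. Calls in both directions were found for 2 of the 18 members, Igf2r and Gnas, or 11.1%, and for 7.52% of all such genes. What sets the probe sets of a gene apart was not tested.

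**Figure D4:**
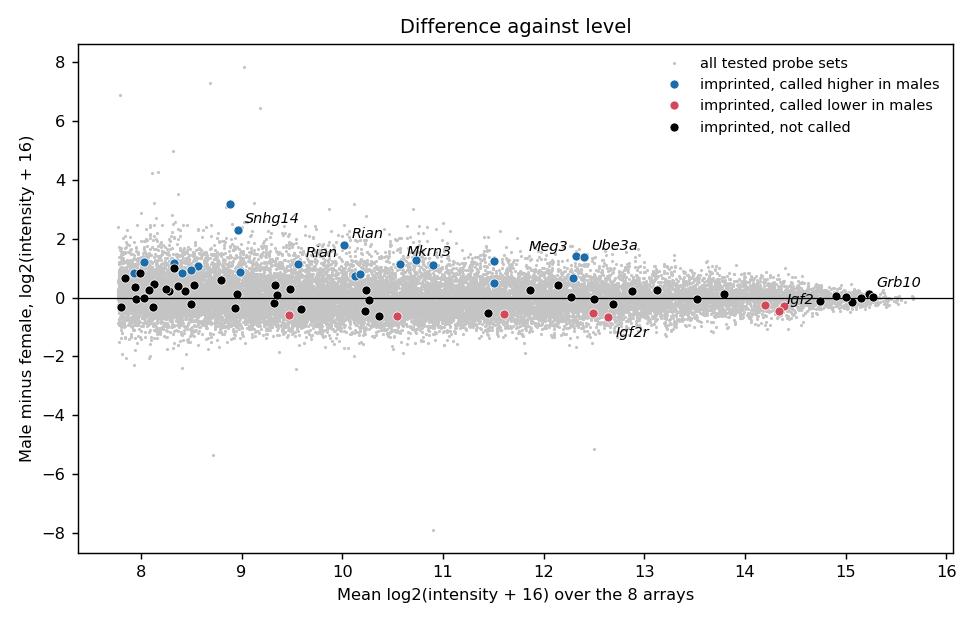
Male minus female difference against the mean level over the 8 arrays, both on the log2(intensity + 16) scale, for all 22519 tested probe sets (grey) and the 74 of imprinted genes (coloured by call). The brightest imprinted probe sets, such as that of Grb10, lie near 0, and the called ones higher in males lie at lower levels.

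Genes that set or keep imprints moved in both directions. Of 19 tested factors of the list, 8 were higher and 7 lower in males, or 42.1% and 36.8%, beside 14% and 28.2% of all tested genes. The 3 called with the largest positive differences were Tet2 (1.17 ± 0.32) and Tet1 (0.85 ± 0.14), which oxidize methylated cytosine, and Cnot3 (1.00 ± 0.29), a subunit of an mRNA deadenylase. Those with the largest negative differences were Mbd3 (-1.49 ± 0.23), a subunit of the NuRD complex, and the histone H3 lysine methyltransferases Setdb1 (-0.98 ± 0.12) and Ehmt2 (-0.75 ± 0.13). Trim28, the corepressor recruited by Zfp57, was also lower in males (-0.72 ± 0.09). Dnmt1, the maintenance DNA methyltransferase, averaged 14382 ± 264 in males and 22371 ± 2560 in females (-0.63 ± 0.08, limma adjusted p = 0.000226). Another Setdb1 probe set was called higher in males, and another Tet2 probe set had the opposite sign and did not pass. Dnmt3a, counted as higher, and Dnmt3b, counted as lower, each had another probe set called the opposite way. Ctcf, not called on its brightest, had another probe set called higher in males. For further imprinted genes the shares of all tested genes to compare are again 14% and 28.2%. Of 25 further tested imprinted genes outside the member list, 6 were higher and 6 lower in males (24% and 24%). They included the transcription factor gene Klf14 (1.19 ± 0.25), the Polycomb-related Sfmbt2 (0.93 ± 0.19) and the phosphodiesterase gene Pde10a (0.61 ± 0.18) among the higher, and H13 (-0.94 ± 0.16), a signal peptide peptidase gene, Dhcr7 (-0.92 ± 0.14), a cholesterol synthesis gene, and Mcts2 (-0.84 ± 0.16), a retrogene inside H13, among the lower. Another H13 probe set was called higher in males, as was another of Ago2, a gene counted among the lower.

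Markers of cell types of the region were counted by the same fit, in short lists. Over all tested genes 14% were called higher in males and 28.2% lower. Of 21 skeletal muscle markers on the array 14 were tested, of which 8 were higher and 0 lower in males. Their summed intensity was 14677 to 23564 on the male arrays and 4893 to 11428 on the female arrays (exact permutation test, two-sided, p = 0.0286, adjusted p = 0.04). The largest part of the muscle sum was Myh3, which averaged 9134 ± 1880 in males and 3556 ± 1490 in females. Of 13 neuron markers on the array 8 were tested, of which 4 were higher and 2 lower, with sums of 12939 to 17083 in males and 10409 to 11947 in females (the same p-values). Nefl was the largest part of the neuron sum, at 7568 ± 1480 in males and 5455 ± 625 in females. Of 6 erythroid markers on the array 5 were tested, of which 1 was higher and 2 lower, with sums of 44015 to 54040 in males and 39923 to 42665 in females (the same p-values). That sum rests on 1 probe set of the embryonic globin gene Hbb-y, which averaged 46400 ± 4660 in males and 39050 ± 1270 in females, and another Hbb-y probe set was called lower in males. The embryonic globin genes Hba-x (-1.09 ± 0.17) and Hbb-bh1 (-1.04 ± 0.22) were lower in males. Of the other marker lists, 6 of 10 tested epithelial genes were lower and 1 higher in males, 3 of 4 cartilage genes were higher and 0 lower, and 3 of 5 endothelial genes were higher and 1 lower. Among macrophage genes 2 of 5 were higher and 1 lower. Among tubercle mesenchyme genes 0 of 9 were higher and 3 lower (33.3%), the latter near the share of all genes. No tested marker was listed at 0. The part of these cell types and of the 18S level in the imprinted gene differences was not tested. The ratio of 3′ to 5′ control signal, a sign of RNA quality, overlapped between the sexes. For beta-actin it was 5.30 to 9.04 in males and 6.47 to 8.54 in females (exact permutation p = 0.686). For Gapdh it was 12.61 to 16.34 in males and 14.36 to 21.25 in females (exact permutation p = 0.257). On every array the 3′ signal was thus several times the 5′ signal.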

How the data were processed

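Intensities of 45101 probe sets on 8 arrays were deposited by the authors, made with GCOS, the Affymetrix software that the submitters' processing notes name without a version. The deposited values are linear, and their 2% trimmed mean is 1500 on every array, so they were not normalized again. Per the labels' protocols, total RNA was amplified in 2 rounds and labelled with biotin. Each sample was grouped by the sex in its title.

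Values were transformed to log2(intensity + 16). The 64 control probe sets were left out, and the 22519 probe sets with a mean log2 value at or above the median (7.77) were tested with limma 3.58.1 in R 4.3.3 (eBayes with a mean-variance trend, a model of sex alone, Benjamini-Hochberg over all tested probe sets, threshold 0.05). The fit was also run on simulated data. There every probe set had the same spread and few were changed, unlike in these data. Of the other probe sets than controls, 34945 named 1 gene, 932 several and 9160 none, and all 44 member symbols matched GRCm38.p6. Of 106 member probe sets, 30 have a suffix used where probes match more than 1 transcript. The number of arrays limits the precision.

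Per-array values are given for members called on the brightest tested probe set, for the 10 brightest members and for those with probe sets of opposite sign, the others by range or difference. Of the further imprinted genes and the imprint factors, the 3 called genes with the largest difference each way are named, with Dnmt1, Trim28 and tissue markers added after their values were seen. The members, lists and alternatives were chosen with earlier results of these data known. No pair of the 28 pairs of arrays held identical values.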

Additional observations from a re-analysis of the deposited data

Results flagged for a closer look

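Of 96 groups of 4 arrays examined, 1 for each sex and each member probe set described, 9 had a single array far from the other 3 by Dixon's criterion, and chance gives about 1 in 20. Male replicate 4 read 1039 for Airn, below 1236 to 1271 on the other male arrays. Male replicate 1 read 2905 for Commd1, above 2415 to 2491, and 30271 for the brightest Ndn probe set, below 32958 to 33492. Male replicate 3 read 44470 for the brightest Peg3 probe set, above 37790 to 38751. Female replicate 4 was the low array in 4 cases: 10513 for Mest beside 12382 to 12549, 1443 for Osbpl5 beside 1942 to 2062, 36984 for Peg3 beside 39794 to 40380, and 33767 for Plagl1 beside 37169 to 37803. Female replicate 1 read 183.7 on the dimmer Gnas probe set, below 249.4 to 264.3 on the other female arrays.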

How the results depend on the processing

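With the 18S level as a covariate, 414 probe sets were called, 251 higher and 163 lower in males. Then 2 member probe sets and 2 member genes were higher and 0 and 0 lower, beside 125 and 105 of all genes. At the upper-quartile filter fewer probe sets were tested, 11260, and 5890 were called, 2476 higher and 3414 lower in males. Among members 9 probe sets were higher and 9 lower. By gene 4 members were higher and 8 lower, beside 1339 and 2358 of all genes. Averaging the probe sets of a gene, 9 member genes were higher and 4 lower in males, beside 1978 and 2975 of all genes. Of the 15 called member genes 10 were kept and 5 lost, and 3 others were gained. Signs changed, with a call in at least 1 of the fits, for Kcnq1ot1 (-0.20) and the dimmest tested Rian probe set (-0.24) with the 18S covariate, and for Gnas (0.28), Igf2r (0.05) and Plagl1 (0.79, called) with the mean of probe sets. Without male replicates 1 and 3, a choice made after seeing the data, Nnat was called lower in males (-0.69). In that fit 15 member probe sets were higher and 8 lower, beside 3406 and 4545 of all tested probe sets. The causes were not tested, beyond the smaller number of probe sets noted.

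Leaving out each array gave 7321 to 9454 called probe sets, 3323 to 4215 higher and 3998 to 5239 lower in males. Among members 15 to 24 probe sets were higher and 7 to 11 lower, and 6 to 8 genes were higher and 7 to 9 lower, beside 1293 to 1800 and 2656 to 3417 of all genes. Of the 29 called member probe sets, 29 stayed called with pseudocounts of 1 and 64, 27 with quantile normalization, 27 with array weights, 25 without the variance trend and 22 with no filter, where 7 were lost. The replicate numbers shared by the sexes do not pair the arrays (correlations of same-numbered deviations from -0.13 to 0.04, 1 of 8 arrays correlating best with its own number). With the replicate number as a block, 8460 probe sets were called, 3910 higher and 4550 lower in males. Among members 19 probe sets were higher and 9 lower, and 26 of the 29 were kept.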
